A study of Mus musculus with 2 samples.

Results

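The integrin and laminin genes, which encode the receptors and the basement membrane ligands that fix heart cells to their matrix, were measured in heart sections of a control and a TOP2B transgenic mouse. The members were all genes of the deposited feature list whose symbols have the form of an integrin alpha, an integrin beta or a laminin chain gene. The list held 37 such symbols among 19465 genes, and 34 of them, 24 of 26 integrin and 10 of 11 laminin genes, had at least 20 UMIs (unique molecular identifiers, each counting 1 captured probe molecule) over both sections. The 3 genes below that limit were Itga2 with 9 control and 8 transgenic UMIs, Itgae with 2 and 13, and Lama1 with 6 and 9. Just inside it stood Itgax with 21 and Itgad with 24 UMIs in all.

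The control mouse was α-MHC-MerCreMer+/−, and the transgenic mouse was α-MHC-MerCreMer+/− TOP2B LSL/−, carrying a human TOP2B cDNA behind a CAG promoter and a floxed stop cassette at the Rosa26 locus. Both groups carried the tamoxifen-inducible Cre, whose α-MHC promoter is active in cardiomyocytes, and both received a single intraperitoneal tamoxifen dose of 80 mg/kg. With this single dose, which defines the acute model, the mice were injected at 6 weeks of age and the controls were siblings of equal age. The time from tamoxifen to the harvest of these sections was not given in the sources used here. Each genotype was represented by 1 formalin-fixed section of 5 μm from 1 mouse, read with the Visium CytAssist probe assay, so genotype, animal and section cannot be told apart.

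Integrins are paired alpha and beta chains of the cell surface. The alpha chain largely sets which matrix protein is bound, with separate classes for laminin, collagen and the RGD motif of fibronectin and vitronectin, and the beta chain links to the actin cytoskeleton through talin and kindlin. Laminins are trimers of an alpha, a beta and a gamma chain that build the sheet around each cardiomyocyte and vessel, and several αV integrins release active TGF-β from its latent complex.

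The sections held 1256 control and 924 transgenic spots over tissue, with 14376300 and 12953389 UMIs and a median of 11336 and 14531 UMIs per spot. Cardiomyocyte markers made up 71831 and 51454 CPM (UMIs per 1000000 of the section), in keeping with the cardiac label of both samples. Log2 ratios of transgenic over control CPM of the 9 measured marker genes ran from −1.77 (Mb) to 0.17 (Tnnt2). Of them, 3 were at least 2-fold lower (5.61% of all genes) and 0 at least 2-fold higher (13.7% of all genes). Spots called rich in cardiomyocyte markers below are rich in UMIs of these genes, and their cell content was not measured. Spots are small regions holding several cells, and they are not replicates, so no test between the genotypes was possible. Ranges in parentheses are 95% intervals for counting error only, and the spread inside a section is given over its 4 quadrants. Probes differ in yield between genes, so that levels were compared between sections gene by gene and not between genes.

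The members were mostly higher in the transgenic section. Their median log2 ratio of transgenic over control CPM was 0.77 (interquartile range, 0.34 to 1.30), against 0.20 over the 15236 genes with at least 20 UMIs. A ratio of at least 2-fold higher was found for 12 of the 34 members, where 13.7% of all genes passed it, and of at least 2-fold lower for 2 members, where 5.61% of all genes did. With edgeR TMM factors in place of totals, these shares of all genes became 10.6% and 7.93%, and 10 and 2 of the same members stayed past 2-fold. Among the higher members, Itgax and Lamc3 passed the limit of 20 UMIs mainly through the transgenic section, with 2 and 7 control UMIs. Taken relative to the 200 genes nearest to each in mean CPM, the median of the members was 0.52, Itgb6 stood at −3.65, Lamc3 at 2.75 and Itgb5 at 1.81, and Lama2, at 0.87, was the 1 gene that fell short of 2-fold. The counting interval lay above 0 for 23 members (39.4% of all genes) and below 0 for 3 members, Itgb6, Lamb3 and Lama5 (17.0% of all genes). In 21 members every transgenic quadrant was above every control quadrant (30.3% of all genes), and in 2 members, Itgb6 and Lamb3, every transgenic quadrant was below (13.1% of all genes). The summed level of the integrins went from 855 to 1696 CPM and that of the laminins from 900.0 to 1484 CPM.

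**Figure D1:**
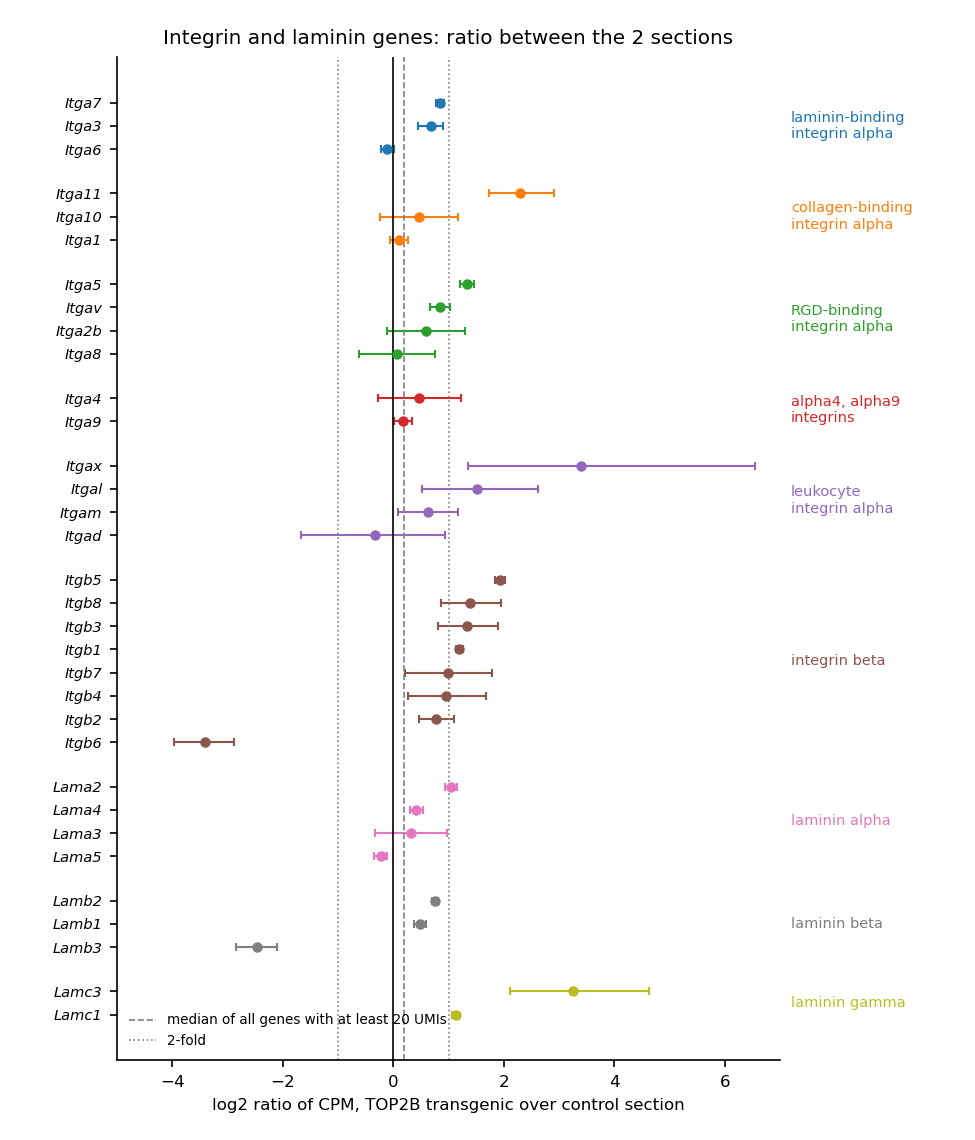
Log2 ratio of transgenic over control CPM for 33 of the genes, grouped by role, with bars for the 95% counting interval. The dashed line marks the median of all genes (0.20) and the dotted lines 2-fold. Itgb6 (−3.41) and Lamb3 (−2.46) sit alone on the lower side of 2-fold.

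Upstream sequence was available in the RefSeq table (build GRCm38.p6) for 22 of the 34 members. The 250 bases before the start are shown for the 2 members at least 2-fold lower and for the 2 integrin beta genes that hold most beta chain UMIs. Capitals mark matches, on either strand, to the GC box GGGCGG and to the TEAD motif GGAATG, and an AP-1 motif TGANTCA was also searched.
Itgb6, chr2:60722604-60722853, minus strand: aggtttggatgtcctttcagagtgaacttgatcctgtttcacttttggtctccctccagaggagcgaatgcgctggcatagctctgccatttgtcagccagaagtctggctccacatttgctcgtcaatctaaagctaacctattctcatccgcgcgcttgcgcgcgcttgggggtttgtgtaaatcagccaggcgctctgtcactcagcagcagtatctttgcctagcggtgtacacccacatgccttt
Lamb3, chr1:193301744-193301993, plus strand: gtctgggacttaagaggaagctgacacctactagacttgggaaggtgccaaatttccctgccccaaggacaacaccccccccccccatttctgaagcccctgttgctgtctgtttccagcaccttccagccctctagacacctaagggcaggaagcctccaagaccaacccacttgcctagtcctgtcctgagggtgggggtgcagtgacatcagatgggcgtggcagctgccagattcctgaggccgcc
Itgb5, chr16:33829415-33829664, plus strand: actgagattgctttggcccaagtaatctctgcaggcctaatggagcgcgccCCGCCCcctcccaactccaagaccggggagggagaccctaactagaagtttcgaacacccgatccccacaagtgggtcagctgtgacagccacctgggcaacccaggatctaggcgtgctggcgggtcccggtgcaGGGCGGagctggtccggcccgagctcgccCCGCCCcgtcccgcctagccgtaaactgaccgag
Itgb1, chr8:128685404-128685653, plus strand: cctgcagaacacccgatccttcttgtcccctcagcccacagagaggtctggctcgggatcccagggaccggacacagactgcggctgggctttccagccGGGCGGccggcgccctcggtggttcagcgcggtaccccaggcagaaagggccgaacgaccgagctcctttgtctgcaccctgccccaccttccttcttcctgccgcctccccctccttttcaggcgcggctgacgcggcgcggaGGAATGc
No match to any of the 3 motifs was found in the Itgb6 and Lamb3 windows. The Itgb5 window held 3 GC boxes, and the Itgb1 window held 1 GC box and 1 TEAD motif. Among all 32841 windows of this length, 32.7% held a GC box, 12.6% the TEAD motif and 6.75% the AP-1 motif. Among the 22 members, each with 1 window at its most upstream start, these were 8, 2 and 1 windows. The 32841 windows cover 27018 genes, some with several starts, so the 2 sets were not chosen alike. A GC box stood in 3 of the 7 windows of members at least 2-fold higher and in 5 of the 13 within 2-fold. The GC content was 52.0% for Itgb6 and 58.8% for Lamb3, against 65.2% for Itgb5, 68.0% for Itgb1 and a median of 52.4% over all windows. These letters describe the windows, and nothing about factor binding was measured.

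The beta chains held both the lowest ratio of all members and a group of higher ones. Itgb6, which pairs with αV and is best known from epithelia as an activator of latent TGF-β, had 388 UMIs in the control and 33 in the transgenic section. That is 27.0 CPM against 2.55 CPM, a log2 ratio of −3.41 (−3.96 to −2.89). The control quadrants ranged from 24.9 to 29.3 CPM and the transgenic quadrants from 1.38 to 4.78 CPM, with no overlap. Itgb6 was spread thinly over the control tissue. It had a UMI in 27.0% of control spots (24.6% to 29.5%) and in 3.46% of transgenic spots (2.38% to 4.85%). At an equal depth of 8134 UMIs per spot the shares were 19.6% and 2.15%, and no spot held more than 3 of its UMIs. Markers of epithelium stood at 3.34 and 3.32 CPM over the 6 measured genes of the list, and Epcam, the defining one, had 6 and 4 UMIs.

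Itgb5, another αV partner and a vitronectin receptor, had 91.5 control CPM and 349 transgenic CPM (log2 ratio 1.93; 1.84 to 2.02). Its quadrants ran from 86.0 to 98.6 CPM and from 277 to 440.1 CPM. Thus the transgenic quadrants differed among themselves more than the control quadrants did. Itgb1, the common partner of most alpha chains in heart muscle, went from 242 to 556 CPM, a log2 ratio of 1.20 (1.14 to 1.26), with quadrants from 233 to 251 and from 515 to 597 CPM. Itgb8, a further αV partner, counted 43 control and 102 transgenic UMIs (log2 ratio 1.40; 0.87 to 1.95), and Itgb3, the beta chain of platelets and vessels, 43 and 98 UMIs (1.34; 0.81 to 1.89). The remaining beta chains were below 2-fold. The log2 ratio was 0.98 for Itgb7, 0.96 for Itgb4, the beta chain of hemidesmosomes, and 0.78 for Itgb2, the beta chain of leukocytes. Among these 3, the quadrants of Itgb7 overlapped between the sections. When each section was limited to its 50% of spots with most cardiomyocyte marker signal, the ratio of Itgb7 turned to −0.43 on 15 control and 10 transgenic UMIs, and that of Itgb8 was 0.79, below 2-fold, on 22 and 34 UMIs. This choice, used again below, was made within each section and did not match the sections. Cardiomyocyte markers made up 7.61% of the UMIs in the control and 6.04% in the transgenic spots kept. Activated fibroblast markers made up 0.0649% and 0.269%.

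Within the beta family, whose UMIs numbered 5461 in the control and 12259 in the transgenic section, the composition moved away from Itgb6 and toward Itgb5. The Itgb6 share of beta chain UMIs was 7.10% (6.44% to 7.82%) in the control and 0.269% (0.185% to 0.378%) in the transgenic section. The Itgb5 share was 24.1% (23.0% to 25.2%) and 36.9% (36.0% to 37.7%). The Itgb1 share was 63.8% and 58.7%, and its quadrants, at 63.1% to 65.1% and 53.9% to 64.2%, overlapped. A share within a section does not depend on how the sections are scaled. It does depend on the probe yield of each gene, so shares were compared between sections and not between genes.

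**Figure D2:**
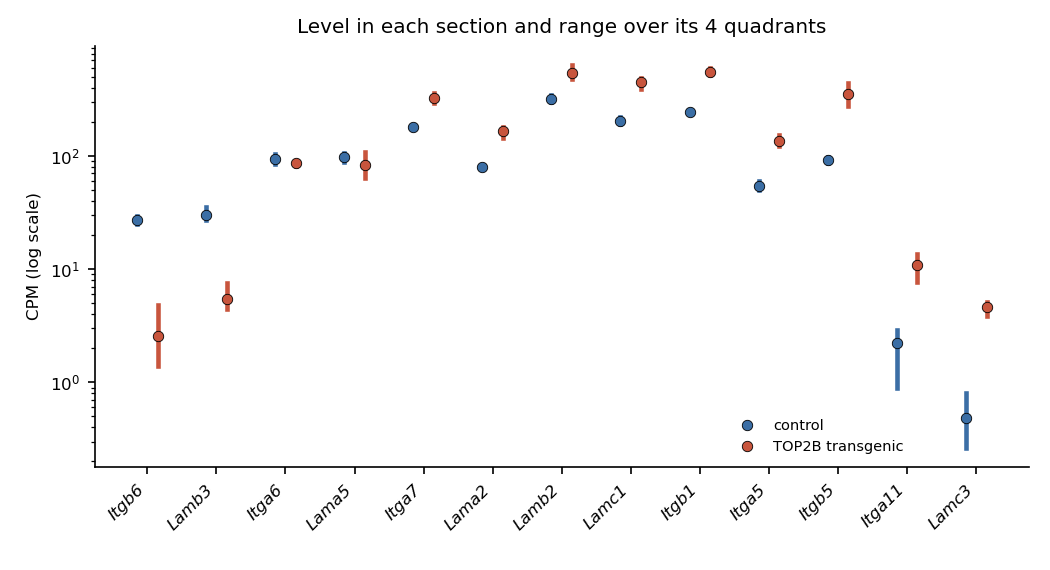
CPM on a log scale for 13 of the genes in the control and the TOP2B transgenic section. Points are section values and vertical lines run from the lowest to the highest of 4 quadrants. The lines of Itga6 and Lama5 overlap between the sections, and those of the other 11 genes do not.

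The laminin-binding alpha chains moved apart. Itga7, the main laminin receptor of striated muscle, went from 180.2 to 323 CPM, a log2 ratio of 0.84 (0.77 to 0.91), with quadrants from 172 to 186 and from 291 to 362 CPM. Itga6, the laminin receptor of endothelium and epithelium, had 93.8 and 86.8 CPM, a log2 ratio of −0.11 (−0.23 to 0.00), and its quadrants overlapped. In the cardiomyocyte-rich 50% of spots its ratio was 0.10. Itga3 had 18.9 and 30.3 CPM, a log2 ratio of 0.68 (0.45 to 0.91). The share of Itga7 in the UMIs of these 3 genes was 61.5% (60.0% to 63.0%) in the control and 73.4% (72.2% to 74.5%) in the transgenic section. That of Itga6 was 32.0% and 19.7%, with quadrants from 29.8% to 35.0% and from 18.7% to 21.1%. No quadrant overlapped for either share.

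Among the collagen-binding alpha chains, Itga11, a receptor for fibrillar collagen found on fibroblasts, stood apart. It had 32 control and 142 transgenic UMIs, or 2.23 and 11.0 CPM, for a log2 ratio of 2.30 (1.74 to 2.90). Its quadrants ranged from 0.889 to 2.88 CPM and from 7.63 to 13.6 CPM. Its ratio was 1.61 in the cardiomyocyte-rich 50% of spots. Itga1, the most counted gene of this class, had 40.6 and 43.6 CPM (log2 ratio 0.11; −0.06 to 0.27), and Itga10 had 33 and 41 UMIs (0.46; −0.23 to 1.17). The Itga11 share of the class was 4.87% (3.36% to 6.81%) in the control and 18.8% (16.1% to 21.8%) in the transgenic section, and that of Itga1 was 88.7% and 74.7%.

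All 4 RGD-binding alpha chains had ratios above 0, as did 9636 of the 15236 genes with at least 20 UMIs. Of these chains, 1 passed 2-fold, where 13.7% of all genes did. Itga5, the fibronectin receptor chain, had 53.8 and 135 CPM, a log2 ratio of 1.33 (1.21 to 1.45), with quadrants from 50.3 to 59.9 and from 123 to 152 CPM. Itgav, the αV chain, had 27.1 and 48.5 CPM, a log2 ratio of 0.84 (0.66 to 1.03). Thus the partner that Itgb6, Itgb5 and Itgb8 share was itself higher in the transgenic section, with quadrants that did not overlap. Itga2b, the platelet fibrinogen receptor chain, had 31 and 42 UMIs, and Itga8, a receptor for nephronectin, 39 and 37 UMIs, and both intervals included 0. Markers of platelets stood at 70.3 and 81.8 CPM.

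Itga9, a receptor for tenascin, had 43.5 and 49.2 CPM (log2 ratio 0.18; 0.02 to 0.34), and Itga4, a receptor for VCAM1 and fibronectin, had 29 and 36 UMIs. The quadrants of both overlapped. The leukocyte alpha chains were near the limit of counting. Itgax, a chain of dendritic cells and some macrophages, had 2 control and 19 transgenic UMIs, a log2 ratio of 3.40 with the wide interval of 1.35 to 6.54. In the cardiomyocyte-rich 50% of spots it had 0 and 6 UMIs. With the 0 control UMIs replaced by 3, the ratio there was 1.16, a value that leaves counting error aside. Itgal, the LFA-1 chain, had 12 and 31 UMIs (1.52; 0.52 to 2.62). Itgam, the complement receptor chain of myeloid cells, had 51 and 71 (0.63; 0.09 to 1.18), and Itgad had 14 and 10 UMIs. Macrophage markers were 303 and 587 CPM, with 4 of 10 genes at least 2-fold higher (13.7% of all genes), and their part in these values was not tested. In bulk tissue of this kind, fewer cells of a type and less RNA per cell cannot be told apart.

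**Figure D3:**
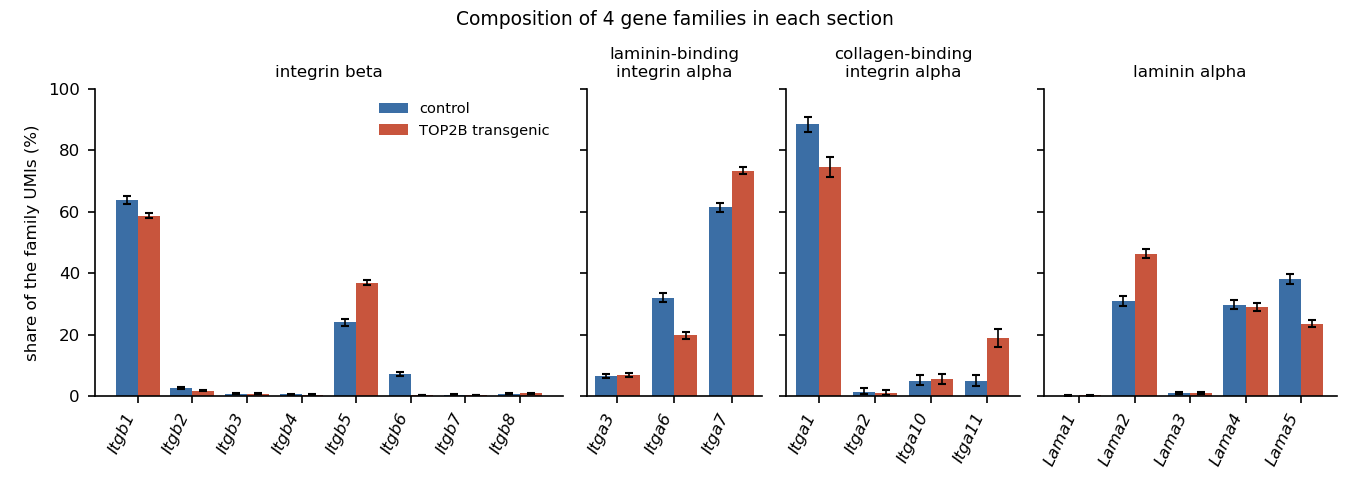
Share of each gene in the UMIs of its family, in percent, for the control and the TOP2B transgenic section, with 95% Clopper–Pearson intervals. Itgb6 goes from 7.10% to 0.269% of beta chain UMIs, Itga7 from 61.5% to 73.4% of the laminin-binding alpha chains, Itga11 from 4.87% to 18.8% of the collagen-binding ones, and Lama5 from 38.0% to 23.6% of the laminin alpha chains.

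The laminin alpha chains shifted toward Lama2, the chain of the muscle basement membrane whose loss causes a congenital muscular dystrophy. Lama2 had 79.9 control CPM and 165 transgenic CPM (log2 ratio 1.04; 0.94 to 1.15), with quadrants from 79.2 to 81.4 and from 144 to 179.7 CPM. Its ratio lay close to 2-fold. Lama4, a chain of vessel walls, had 76.8 and 102 CPM (0.41; 0.30 to 0.53), and Lama5, another chain of vessels and of epithelia, had 98.1 and 83.6 CPM (−0.23; −0.35 to −0.12). The quadrants of Lama5, from 89.2 to 105 and from 63.5 to 108 CPM, overlapped. Of all laminin alpha UMIs, Lama2 made up 31.0% (29.5% to 32.5%) and 46.4% (44.9% to 47.9%), and Lama5 38.0% (36.5% to 39.6%) and 23.6% (22.4% to 24.8%). Lama4 held 29.8% and 28.8%, with overlapping intervals. Endothelial markers were 1067 and 1085 CPM and mural markers 1275 and 1285 CPM in the control and the transgenic section. The single genes behind these sums differed in direction. Log2 ratios of the 10 endothelial genes ran from −0.92 to 1.26, and those of the 10 mural genes from −1.58 to 2.74. In each list 1 gene was at least 2-fold higher (13.7% of all genes), and 1 mural gene was at least 2-fold lower (5.61% of all genes).

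Of the laminin beta chains, Lamb2 had 317 and 537 CPM (log2 ratio 0.76; 0.71 to 0.81) and Lamb1 89.3 and 125 CPM (0.49; 0.38 to 0.59). The Lamb1 share of both was 22.0% (20.9% to 23.1%) and 18.9% (18.1% to 19.8%), and its quadrants, from 19.5% to 24.6% and from 17.1% to 21.3%, overlapped. Lamb3 went the other way. It had 434 control and 71 transgenic UMIs, or 30.2 and 5.48 CPM, for a log2 ratio of −2.46 (−2.84 to −2.10). Its control quadrants lay between 27.0 and 35.5 CPM and its transgenic quadrants between 4.43 and 7.59 CPM. Lamb3 had a UMI in 28.5% of control and 7.36% of transgenic spots, and in 21.3% and 4.66% at equal depth.

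The gamma chain genes Lamc1 and Lamc3 were also higher in the transgenic section. Lamc1, the chain of most laminins, had 204 and 448 CPM, a log2 ratio of 1.13 (1.07 to 1.20), with quadrants from 192 to 219 and from 387 to 486 CPM. Lamc3 had 7 and 60 UMIs, 0.487 and 4.63 CPM, a log2 ratio of 3.25 (2.12 to 4.62), and its quadrants ran from 0.262 to 0.809 and from 3.88 to 5.09 CPM. It was a rare transcript in both sections, and away from the tissue edge, with 7 and 32 UMIs, its ratio was 2.60. Lamc3 was found in 7 control spots (0.557%; 0.224% to 1.14%) and 59 transgenic spots (6.39%; 4.90% to 8.16%).

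Lama3 and Lamb3, both known from the basement membrane of epithelia, differed in their ratios. Lama3 had 40 and 45 UMIs (log2 ratio 0.32; −0.33 to 0.97), while Lamb3 was lower in the transgenic section. The mesothelial markers were 15.4 and 33.4 CPM, and their part in these values was not tested. Likewise, Itgb6 and its partner Itgav differed in direction between the sections, with Itgb6 lower and Itgav higher in the transgenic section.

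The depth per spot differed between the sections, so shares of spots were also set at 8134 UMIs per spot, which left out 140 control and 78 transgenic spots. At that depth Itgb5 was present in 51.4% of control and 88.9% of transgenic spots, Itgb1 in 85.5% and 98.7%, and Itga5 in 34.0% and 63.1%. For Itga6 the shares at equal depth were 53.2% and 51.7%. The uncorrected shares of Itga6, 64.6% and 69.0%, had the opposite order, and its CPM values give the order of the shares at equal depth.

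Spatial order was measured by Moran's I, which is near 0 where neighboring spots are unrelated. As the authors deposited it, it was higher in the transgenic than in the control section for 27 of 34 members and lower for 7, among them Itgb6 (0.01 and 0.00 in the control and the transgenic section) and Lamb3 (0.02 and 0.01). The median over the members was 0.00 and 0.02. The 5 highest transgenic values were those of abundant members. Moran's I was −0.00 for Itgb5 in the control and 0.38 in the transgenic section, 0.01 and 0.39 for Itgb1, 0.03 and 0.38 for Lamb2, 0.02 and 0.34 for Lamc1, and 0.02 and 0.26 for Itga7. Over all genes with at least 20 UMIs the level of Moran's I was higher in the transgenic section as well. The median was 0.0013 in the control and 0.0143 in the transgenic section, and the 90th percentile was 0.02 and 0.10. How many of all genes had a higher transgenic value was not counted. Erythroid markers made up at least 20% of the UMIs in 48 transgenic and 8 control spots, and 45 of the transgenic ones formed 1 connected patch. Recomputed on log values per spot, Moran's I lay above the 90th percentile of all genes for 3 of 34 members in the control and for 7 in the transgenic section. That of Itgb1 in the transgenic section was 0.41 with and 0.09 without the erythroid-rich spots, that of Lamc1 0.36 and 0.14, of Lamb2 0.40 and 0.17, and of Itga7 0.28 and 0.09. So for these 4 genes the larger part of the value was lost without them. The 90th percentile of all genes in the transgenic section fell as well, from 0.11 to 0.06. These 4 genes stayed above it, and 7 members lay above it with and without those spots. Moran's I of Itgb5 was 0.43 and 0.34, and that of Lama5 0.18 and 0.15. Leaving out those spots, a choice made after seeing the maps, changed no call of the members at 2-fold between the sections.

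**Figure D4:**
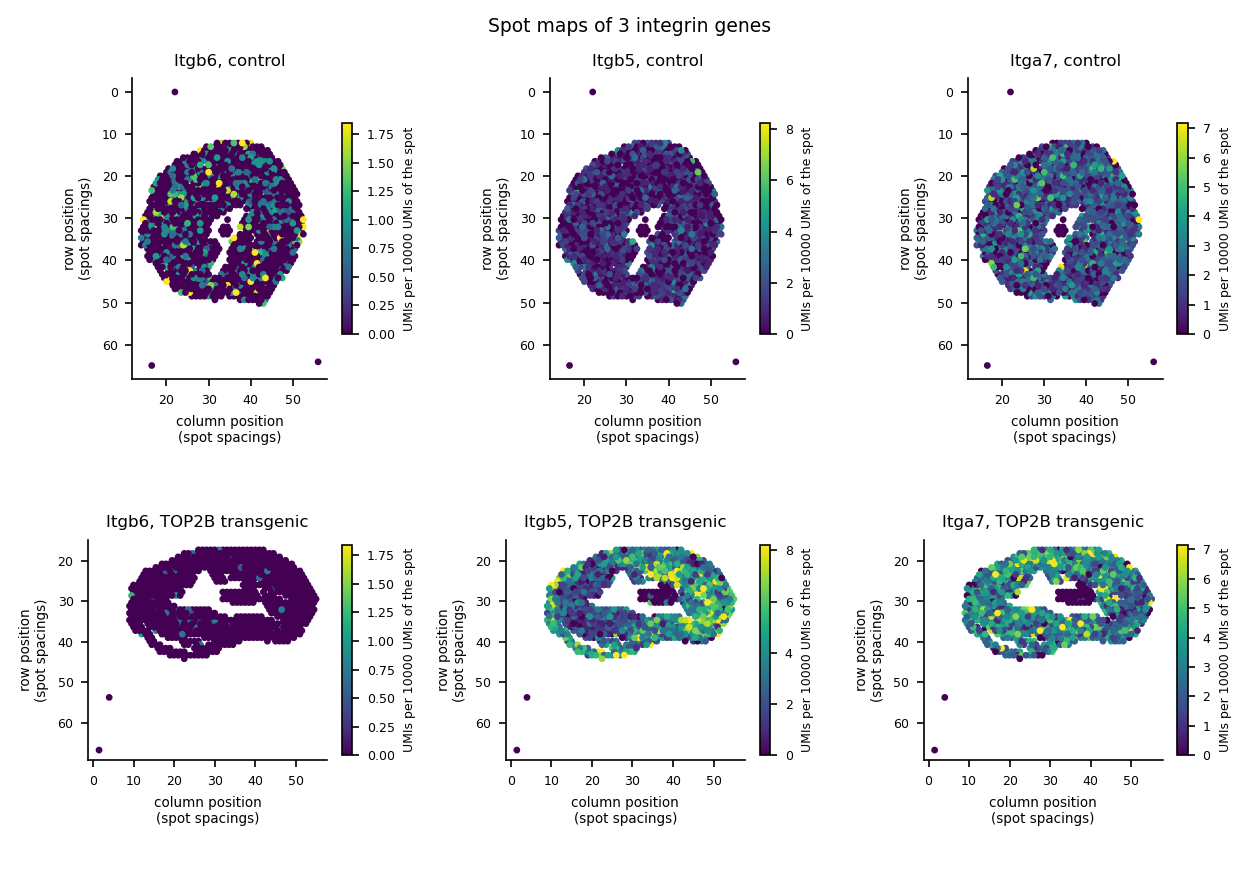
Maps of Itgb6, Itgb5 and Itga7 in UMIs per 10000 UMIs of each spot, with the control section above and the TOP2B transgenic section below, on axes in spot spacings. Each gene has 1 color scale for both sections, cut at its 99th percentile. Itgb6 is scattered over the control tissue and sparse in the transgenic tissue, Itgb5 has bright and dark regions in the transgenic wall, and the compact dark group of spots inside the transgenic section is the patch rich in erythroid markers.

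To see with which markers the members varied inside the transgenic section, its spots were ordered by the share of marker UMIs and the highest and lowest tertiles of 307 spots were compared. By activated fibroblast markers (Postn, Cthrc1, Col1a1, Col3a1, Fn1, Comp, Meox1 and Tnc), 19 of 31 members with enough UMIs had an interval above 0, where 29.8% of all genes did, and none had one below 0, where 9.57% of all genes did. The log2 ratio was 1.73 (1.01 to 2.52) for Itga11, 1.53 (0.67 to 2.47) for Itgb8, 1.27 (1.15 to 1.39) for Itgb5, 1.21 (0.97 to 1.46) for Lama5 and 0.81 (0.51 to 1.11) for Itgav, against a median of 0.21 over all genes. Thus the αV chain and the partners Itgb5 and Itgb8 were higher where fibroblast matrix genes were high. The partner Itgb6 did not share this, at −1.21 (−2.55 to 0.02) with 9 UMIs in the highest and 18 in the lowest tertile. Itgb3 stood at 0.29 (−0.43 to 1.03). Itga10 had the same ratio as Itga11, 1.73, on few UMIs (0.39 to 3.31). The intervals of Itga7, Itga5 and Itga6 included 0, with ratios of 0.05 (−0.06 to 0.16), 0.07 (−0.10 to 0.25) and −0.09 (−0.30 to 0.13). Lama5, which was slightly lower in the transgenic section as a whole, was therefore among the 5 members with the highest ratios inside it. The rises of Itgav, Itgb5 and Itgb8 were not particular to activated fibroblast markers. By resting fibroblast markers Itgb8 stood at 1.42, Itgb5 at 1.01 and Itgav at 0.46. By resting fibroblast, mural and macrophage markers, 16 of 32, 13 of 32 and 12 of 31 members had an interval above 0. Of all genes 26.7%, 19.3% and 20.2% did. Intervals below 0 were found for 1, 1 and 0 members (6.38%, 3.92% and 5.10% of all genes). By endothelial markers 2 lay above 0 (8.41%) and 1 below (3.44%).

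Ordered by cardiomyocyte markers, the picture turned. Itgb6 (1.54; 0.14 to 3.16), Itga7 (0.28; 0.17 to 0.39) and Itga6 (0.26; 0.04 to 0.47) were the 3 of 32 members with an interval above 0, where 12.1% of all genes had one. Intervals below 0 were found for 16 members, where 25.9% of all genes had one, with the lowest values for Itgb7 (−2.37; −4.38 to −0.79), Itga11 (−2.31; −3.22 to −1.49), Itgb8 (−2.10; −3.10 to −1.21) and Itga2b (−1.99; −3.57 to −0.65). Itgb5, with many more UMIs, stood at −1.19 (−1.30 to −1.07). The median over all genes was −0.15. Cardiomyocyte and fibroblast shares of 1 spot are not independent, because each is a part of the same total. Without the erythroid-rich spots the ratios of Itgb5 and Itga11 by fibroblast markers were 1.20 and 1.57, and that of Itgb6 by cardiomyocyte markers was 1.60, with 17 against 6 UMIs. By cardiomyocyte markers the interval of Itga6 then included 0 (0.20; −0.02 to 0.41), as did that of Itgb3 (−0.61; −1.39 to 0.14). Itga7 stood at 0.16 (0.05 to 0.27) and Itga2b at −1.58 (−3.38 to −0.06), while Itgb7 (−2.42) and Itga11 (−2.34) changed little. Of 31 members, 2 then had an interval above 0 (10.1% of all genes) and 15 had one below 0 (29.6% of all genes).

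**Figure D5:**
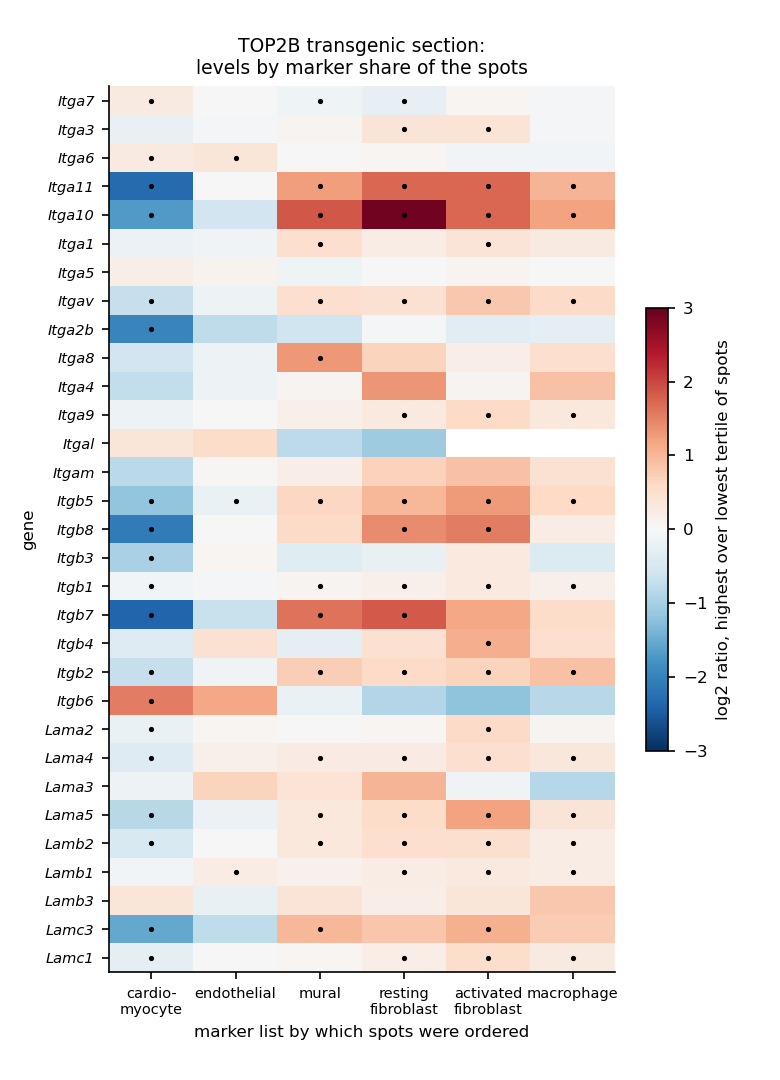
Log2 ratio of CPM between the tertile of transgenic spots with the highest and the tertile with the lowest share of each marker list, on a color scale from blue (lower) to red (higher). Dots mark 95% counting intervals that leave out 0, and blank cells had fewer than 20 UMIs. Itga11, Itgb5, Itgb8 and Lamc3 are red by activated fibroblast and blue by cardiomyocyte markers, and Itgb6 and Itga7 are red by cardiomyocyte markers.

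In the control section fewer members, and a smaller share of all genes, had intervals that left out 0 by these markers. Between the highest and lowest tertiles of 416 spots by activated fibroblast markers, 7 of 28 members had an interval above 0, where 8.43% of all genes did, and 1 had one below 0, Itga1 (−0.39; −0.69 to −0.09), where 3.16% of all genes did. Itgb5 differed by 0.24 (0.04 to 0.44), Itgb1 by 0.19 (0.07 to 0.31) and Itgav by 0.14 (−0.21 to 0.50). The rarer Itgb8 had 0.84 (−0.27 to 2.00) and Itga11 −0.71 (−2.17 to 0.65), so that neither direction was resolved by the counts. By cardiomyocyte markers 5 of 27 control members had an interval below 0, where 6.41% of all genes did, and none had one above 0, where 2.34% did. Itga8 was the lowest of them (−1.73; −3.34 to −0.35), and Itga6 stood at −0.34 (−0.53 to −0.15), on the other side of 0 from its value in the transgenic section. Itgb6 differed by 0.07 (−0.27 to 0.42). Hence Itgb6 in the control tissue showed no detectable gradient by these markers at this depth and with the contrast between these tertiles. Cardiomyocyte markers made up 6.60% and 7.80% of UMIs in the lowest and highest control tertiles, against 3.88% and 6.34% in the transgenic ones. For activated fibroblast markers these shares were 0.0332% and 0.118% in the control and 0.140% and 0.672% in the transgenic section. Edge spots made up 9.38% and 31.0% of these control tertiles and 26.1% and 36.5% of the transgenic ones. In the control, Itgav was higher in the macrophage-rich tertile (0.53; 0.17 to 0.90) and in the tertile rich in resting fibroblast markers (0.42; 0.06 to 0.80). By cardiomyocyte markers control Itgav was lower (−0.51; −0.87 to −0.15). Itga6 was higher in the endothelium-rich tertile of both sections, by 0.23 (0.04 to 0.42) and 0.36 (0.14 to 0.57).

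The marker lists themselves differed between the sections. Activated fibroblast markers went from 703 to 4052 CPM, with 8 of 8 genes at least 2-fold higher (13.7% of all genes). Resting fibroblast markers went from 807 to 1336 CPM, and erythroid markers from 2145 to 20390 CPM. The 8 resting fibroblast genes differed in direction, with log2 ratios from −1.56 to 2.01. Of them, 4 were at least 2-fold higher (13.7% of all genes) and 1 was at least 2-fold lower (5.61% of all genes). In the 50% of spots of each section that were poorest in activated fibroblast markers, a choice made after seeing the data, 9 of the 12 higher members and both lower members remained past 2-fold, and Lamc1, Lama2 and Itgb8 did not. How many of all genes passed 2-fold in these spots was not counted, so this number has no background to be read against. The ratio was 2.26 for Lamc3 and 1.50 for Itga11 in these spots. The choice of spots was made within each section and did not match the sections, since these markers still made up 0.201% of the UMIs in the transgenic and 0.0405% in the control spots kept. The part of fibroblast markers in the difference was not tested. Transgenic spots with a high share of Myh7 among Myh6 and Myh7 UMIs, a sign of the fetal myosin program, had more Lamc3 than those with a low share (log2 ratio 1.78; 0.66 to 3.04) and more Itgb5 (0.50; 0.40 to 0.61), and less Itga7 (−0.34; −0.45 to −0.23), against a median of 0.07 over all genes. At the tissue edge, Lamc3 was higher than in the interior of the transgenic section, at 7.69 against 3.44 CPM, and Itgb5 differed little, at 361 against 345 CPM.

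Of the intracellular partners of the integrins, more were higher than lower in the transgenic section. Of the 25 measured genes of the adhesion complex, 7 were at least 2-fold higher (13.7% of all genes) and 1 was lower (5.61% of all genes). Their median log2 ratio was 0.60, and the counting interval lay above 0 for 19 (39.4% of all genes) and below 0 for 5 (17.0%). This list and the lists of laminin partners and integrin ligands below were chosen with earlier results of these data known. The highest were Ptk2b, a kinase related to focal adhesion kinase, at 2.47 (2.03 to 2.94), Zyx, which senses tension at adhesions, at 1.59 (1.52 to 1.66), and Src at 1.50 (1.18 to 1.82). The lowest were Itgb1bp2 (melusin), a muscle protein that binds the Itgb1 tail, at −1.34 (−1.43 to −1.24), Parvb, a parvin of the complex with Ilk, at −0.91 (215 and 114 CPM) and Tln2, the talin of mature striated muscle, at −0.81 (−0.96 to −0.66). Itgb1bp2 went from 243 to 96.3 CPM while Itgb1 itself went from 242 to 556 CPM.

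Partners of laminin in the basement membrane had a median log2 ratio of 0.94. Of these 11 genes, 5 were at least 2-fold higher (13.7% of all genes) and none was lower (5.61% of all genes). Fbln2 stood at 2.50 (2.43 to 2.57), Sparc at 2.37 (2.32 to 2.41) and Smoc1 at 2.01 (1.69 to 2.35). At the other end were Dag1, the dystroglycan that binds laminin on muscle, at −0.13 (−0.22 to −0.03), Smoc2 at 0.09 (0.01 to 0.18) and Hspg2, the perlecan gene, at 0.26 (0.20 to 0.31). Thus Dag1 was slightly lower and Itga7 and Lama2, further parts of the link between muscle and laminin, were higher in the transgenic section.

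Of 19 genes for integrin ligands other than collagens and laminins, 12 were at least 2-fold higher (13.7% of all genes). Of the same 19 genes, 1 was lower (5.61% of all genes), and the median was 1.75. Postn, a ligand of αV integrins, went from 18.2 to 509 CPM (4.81; 4.63 to 4.99), Ccn2 from 111 to 2278 CPM (4.37; 4.29 to 4.44) and Thbs1 from 15.6 to 129 CPM (3.05; 2.85 to 3.26). The lowest were Vtn, the vitronectin gene, at −1.51 (−1.96 to −1.08), Edil3 at −0.85 (−1.93 to 0.16) and Npnt, the ligand of the Itga8 receptor, at −0.41 (−1.28 to 0.43). Postn, Fn1 and Tnc are also among the activated fibroblast markers above. Top2b, read by mouse probes, had 106 and 102 CPM, and whether those probes also read the human transgene was not given in the sources used here.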

How the data were processed

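Visium CytAssist FFPE libraries of 1 control and 1 TOP2B transgenic heart section were analyzed. The deposited values are raw UMI counts for every gene in every spot over tissue, made by the authors with Space Ranger 2.0.0 according to the matrix header. The score used for spatial order, Moran's I, was deposited by the authors as well and taken as given. The submitters' processing notes name bcl2fastq, Space Ranger and the build GRCm39 (mm39). The probe set was not given in the sources used here. The authors' clusters and images were not used.

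Counts were added over the spots of each section and scaled to CPM, and no test was run because each genotype had 1 section. Intervals are exact conditional binomial for ratios and Clopper–Pearson for shares, at 95%, and they cover counting error alone. Edge spots had fewer than 6 neighbors over tissue. Spots with at least 1000 UMIs were ordered into tertiles by the share of marker UMIs. Genes with at least 20 UMIs over both sections were used, and called means at least 2-fold. All 37 symbols of the rule matched the RefSeq gene table. The interval code was tested on simulated data.

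The genes found by the rule were named, apart from 1 that is not reported here by itself and stays in the counts, and of each context list the 3 highest and 3 lowest ratios. The members and lists were chosen with earlier results of these data known. Alternatives were edgeR 4.0.16 TMM factors and DESeq2 1.42.0 size factors (both run in R 4.3.3), totals that leave out the 50 most abundant genes, ratios minus the median of the 200 genes nearest in CPM, subsets of spots, means over spots of UMIs per 10000, 1 CPM added, and limits of 1 or 200 UMIs. Python 3.11.15, numpy 2.4.6, scipy 1.17.1, pandas 2.3.3 and matplotlib 3.10.9 were used.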

Additional observations from a re-analysis of the deposited data

How the results depend on the processing

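No 2-fold call turned its direction under any alternative run, and 27 in place of 29 members had a ratio above 0 with TMM or DESeq2 factors. With totals, 9636 of all 15236 genes had a ratio above 0. The median over all genes, 0.20 with totals, was 0.05 with TMM and 0.05 with DESeq2 factors. Of the single-gene ratios under the alternatives, 62 lay outside the gene's counting interval and 312 inside it. Itgb6 and Lamb3 stayed at least 2-fold lower under every alternative, and the 12 genes at least 2-fold higher numbered 9 to 12 of the same genes under each alternative except the limit of 200 UMIs. The share of all genes past 2-fold was counted with totals, TMM and DESeq2 factors only. TMM or DESeq2 factors took Lamc1 and Lama2 below 2-fold and lowered every log2 ratio by 0.16 or 0.15. The median log2 ratio of the laminin genes, 0.62, was 0.47 with TMM and 0.47 with DESeq2 factors, 0.54 with totals without the 50 most abundant genes and 0.49 with members of at least 200 UMIs. That limit left 5 of the 12 genes at least 2-fold higher. With 1 CPM added to both sections the log2 ratio of Lamc3 was 1.92. In the 50% of spots richest in cardiomyocyte markers the log2 ratio of Itgb6 was −2.88, the shift of the Itga7 share of Itga3, Itga6 and Itga7 UMIs was 9.71 percentage points in place of 11.9, and that of the Lamb1 share was −0.26 points in place of −3.07. Of the ratios below 2-fold, those of Itga6 (0.10), Itga10 (−0.12), Itgad (0.84) and Itgb7 (−0.43) turned their sign there. In the 50% of spots poorest in activated fibroblast markers, added after seeing the data, the Lamb1 shift was −1.69 points, the ratio of Itgal was 2.19 in place of 1.52, and those of Itga10 (−0.45), Itgam (−0.03), Itgad (0.07), Itga9 (−0.17) and Itga1 (−0.16) turned. Away from the tissue edge those of Itga8 (−0.09) and Itgad (0.24) did. Leaving out the erythroid-rich spots, also added then, moved none of these values past its interval. No paired analysis was possible because each group had 1 section. Genes with few UMIs, such as Itgax and Itgad, are limited by depth, and no spread between animals could be measured.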
